A study of Mus musculus with 11 samples.

Results

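The insulin-like growth factor (IGF) axis was followed here through 10 transcripts: the ligands Igf1 and Igf2, the receptors Igf1r and Insr, the receptor substrates Irs1 and Irs2, and the binding proteins Igfbp3, Igfbp4, Igfbp5 and Igfbp7. They were chosen by gene symbol for these roles. All 10 were among the 18269 genes of the deposited table and among the 13187 that passed a filter of at least 1 CPM (counts scaled to 1000000 a library) in at least 3 libraries. The RNA came from tibialis anterior, a shin muscle made largely of fast fibres, of C57BL/6 mice aged 21 to 24 months, and the protocol refers to an animal injury model. Of 11 libraries, 4 followed injection of young serum, 3 followed young serum from which extracellular vesicles (EVs, membrane-bound particles shed by cells) had been depleted, and 4 followed saline. All groups share the strain, the age range and the muscle, and no genetic change is given in the labels. Neither separate animals for the libraries nor an injury of every muscle is stated in the labels, so the spread behind the p-values may in part be technical. In bulk tissue, fewer cells of a type and less RNA per cell cannot be told apart.

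IGF1 and IGF2 are secreted growth factors that bind the IGF1 receptor, a tyrosine kinase closely related to the insulin receptor. Both receptors phosphorylate the adaptors IRS1 and IRS2, which recruit PI3-kinase and so activate AKT and mTORC1, raise protein synthesis and glucose uptake, and keep FoxO factors out of the nucleus. Binding proteins hold IGFs in blood and tissue and are opened by proteases. In muscle the axis is known for fibre growth and repair, with IGF1 supplied by macrophages, fibroblasts and fibres, and IGF2 by differentiating myoblasts.

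Each library held 36.4 to 42.2 times 1000000 reads, judged by the value of 1 read among weakly expressed genes. Muscle fibre markers (Acta1, Ckm, Myh1, Myh2, Myh4, Mb, Tnnt3) were at 116453 to 154647 summed CPM, with all 7 genes present in every library. Neutrophil markers were at or near 0, with 0.0767 to 1.71 summed CPM, and the regenerating-fibre markers (Myh3, Myh8, Myog, Mymk) summed to 9.10 to 73.2 CPM. Saline replicate 4 stood apart by its adipocyte markers, with 8101 summed CPM, against a median of 1911 in the saline group. Saline replicate 6 stood apart by its slow-fibre markers, with 5112 summed CPM, against a group median of 359. Member estimates against saline that moved by over 1.5 times or changed sign without either library are also given without it.

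Per exonic kilobase, the scale on which genes can be compared with each other, binding proteins were the most abundant members and Igf1r the least. Igfbp5, the main IGF-binding protein of muscle cells, averaged 88.2 ± 19.6 CPM per exonic kb (SD, n = 11 libraries), and Igfbp7 averaged 55.4 ± 16.2. Igfbp4 followed at 17.3 ± 12.2 CPM per exonic kb. A middle group of Igfbp3 (5.26 ± 1.50), Insr (5.21 ± 1.49), Irs2 (4.76 ± 1.25) and Irs1 (4.001 ± 1.75) did not separate beyond the spread between libraries: in this order each exceeded the next in only 4, 7 and 8 of 11 libraries. Irs1 exceeded Igf2 in 7 of 11 libraries. Igf2 was at 2.71 ± 0.571 CPM per exonic kb and exceeded Igf1 (1.27 ± 0.832) in 10 of 11 libraries, all but saline replicate 4. Igf1 exceeded Igf1r (0.828 ± 0.159) in 9 of 11. Among all tested genes Igfbp5 lay at the 96.4th percentile of level per exonic kb and Igf1r at the 20.5th.

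**Figure D1:**
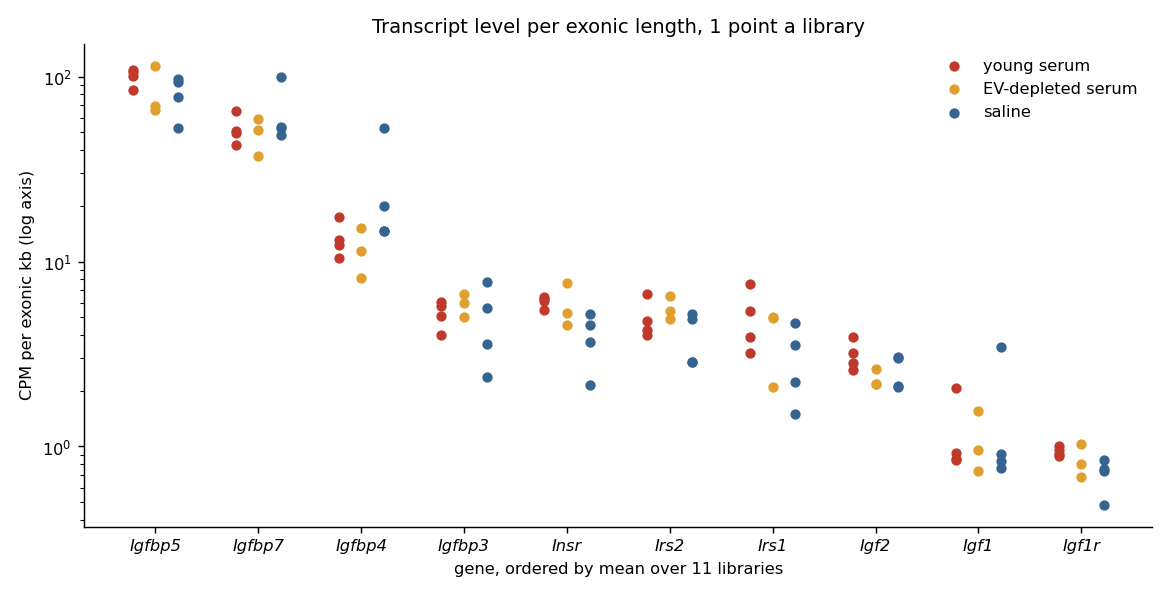
CPM per exonic kilobase of each member on a log axis, 1 point a library, coloured by group, with genes ordered by their mean over 11 libraries. Igfbp5, at 88.2 CPM per exonic kb, and Igfbp7, at 55.4, lie above all other members, and Igf1r, at 0.828, lies lowest.

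No member passed the test in any of the 3 comparisons. In young serum against saline, 0 of 10 members and 0% of the 13187 tested genes passed an adjusted p of 0.05 in limma, fitted on log2(CPM + 1), and the exact permutation test also called 0%. In EV-depleted serum against saline and in young against EV-depleted serum, both tools likewise called 0 members and 0% of all genes. The permutation test is no separate check, since its p cannot fall below 0.0286 with these group sizes. Adjustment over all genes raised that smallest p to 0.235 in young serum against saline. At an unadjusted p under 0.05, 2 members were higher with young serum than with saline, against 10.5% of all genes in that direction. In EV-depleted serum against saline, 2 members were higher, against 6.49% of all genes, and 1 was lower, against 5.59%. In young against EV-depleted serum, 1 was higher, against 0.478%. In either direction, young serum against saline had 2 of 10 members, where 21.9% of all genes passed. EV-depleted serum against saline had 3 of 10, where 12.1% did, and young against EV-depleted serum had 1 of 10, where 2.23% did. With limma array weights, which count each library by its estimated quality and gave low weight to saline replicates 4 and 6, Insr, Igf1r, Irs1, Irs2 and Igfbp3 (5 members) and 26.1% of all genes passed in young serum against saline. Those weights called Insr, Irs2 and Igfbp3 (3 members) and 13.6% of all genes in EV-depleted serum against saline, and 0 members and 0.182% of all genes in young against EV-depleted serum. EV-depleted serum replicate 2 had a weight of 4.19, against 0.634 and 0.423 for replicates 3 and 4, and saline replicate 3 had 3.32. The weighted comparison of EV-depleted serum with saline thus leans mostly on EV-depleted serum replicate 2 and saline replicate 3. Both comparisons with saline share the same saline libraries, and both serum groups enter 2 comparisons each, so the sets of values are not independent.

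By fitted direction, 7 of 10 members were above 0 in young serum against saline, where 47.5% of all genes were. The count was 6 of 10 in EV-depleted serum against saline (49.6% of all genes), and in young against EV-depleted serum 8 of 10 (48.7%). The members' median log2 fold changes were 0.31, 0.15 and 0.13 in these comparisons, against -0.02, 0.00 and 0.00 over all genes.

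**Figure D2:**
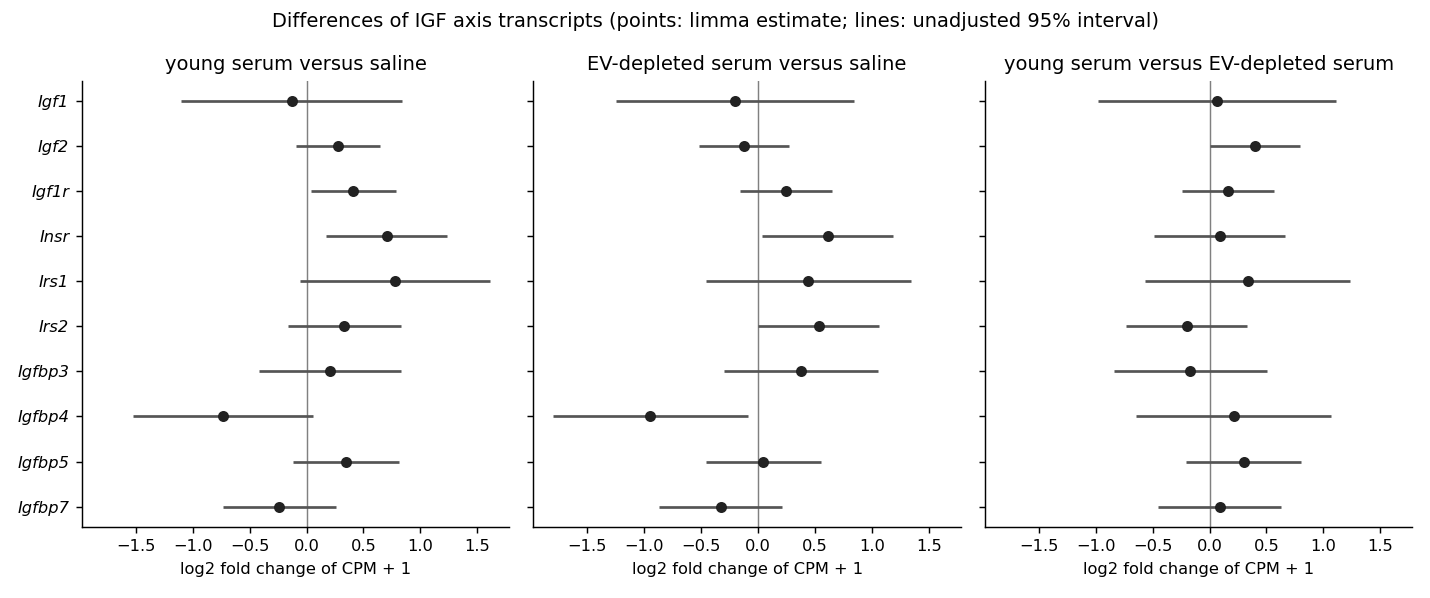
Log2 fold change of CPM + 1 of each member in each comparison, with points for the limma estimate and lines for its unadjusted 95% interval. Insr and Igf1r lie right of 0 in young serum against saline, Igfbp4 lies left of 0 in both comparisons with saline, and no member passed adjustment over all genes.

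Among the ligands, Igf1 was decided by single libraries. Igf1 lies on mm10 chromosome 10 at 87858265 to 87937042 (plus strand). It had 20.6, 9.14, 8.34 and 8.48 CPM in young serum replicates 1 to 4, 9.52, 7.26 and 15.5 CPM in EV-depleted serum replicates 2 to 4, and 8.25, 7.57, 34.1 and 9.05 CPM in saline replicates 2, 3, 4 and 6. One young serum, one EV-depleted serum and one saline library were high, the others lay between 7.26 and 9.52 CPM, and all groups overlapped. The log2 fold change was -0.13 ± 0.44 (SE) in young serum against saline (adjusted p = 0.878) and -0.20 ± 0.48 in EV-depleted serum against saline (adjusted p = 0.853). Without saline replicate 4 both turned to the other sign, at 0.35 and 0.28, and without saline replicate 6 they were -0.25 and -0.32. The EV-depleted serum estimate also turned without EV-depleted serum replicate 3, at 0.0256. Young against EV-depleted serum gave 0.07 ± 0.48 (adjusted p = 0.99998), and -0.22 without young serum replicate 1.

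Igf2, the embryonic IGF expressed from the paternal allele, lies on chromosome 7 at 142650766 to 142666816 (minus strand). It had 16.2, 18.4, 22.5 and 14.8 CPM in young serum, 15.0, 12.4 and 12.5 CPM in EV-depleted serum, and 17.4, 17.2, 12.2 and 12.005 CPM in saline. The young serum values lay above EV-depleted serum except that young serum replicate 4 was just below EV-depleted serum replicate 2, and the saline libraries spanned both. Igf2 averaged 18.0 ± 3.35 CPM in young serum (SD, n = 4), 13.3 ± 1.45 in EV-depleted serum (n = 3) and 14.7 ± 3.02 in saline (n = 4). In young against EV-depleted serum its log2 fold change was 0.40 ± 0.18, with an unadjusted p of 0.0490, an adjusted p of 0.99998 and an exact permutation p of 0.0857. That was the member nearest to the threshold in this comparison, and it did not pass. Leaving out libraries in turn kept the estimate between 0.29 and 0.48. Against saline the log2 fold change was 0.28 ± 0.17 with young serum and -0.12 ± 0.18 with EV-depleted serum, the second being -0.20 without saline replicate 4 and -0.21 without saline replicate 6. H19, the non-coding RNA of the maternal allele next to Igf2, averaged 234.6 ± 89.6 CPM in young serum, 339 ± 48.2 in EV-depleted serum and 236 ± 115 in saline, with a log2 fold change of -0.60 ± 0.42 in young against EV-depleted serum (adjusted p = 0.99998).

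Igf2 had more CPM than Igf1 in most libraries. The Igf2 over Igf1 ratio was 0.786 to 2.70 in young serum, 0.808 to 1.71 in EV-depleted serum and 0.357 to 2.27 in saline. The lowest ratio in each group fell in the library with the highest Igf1, namely young serum replicate 1, EV-depleted serum replicate 4 and saline replicate 4.

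**Figure D3:**
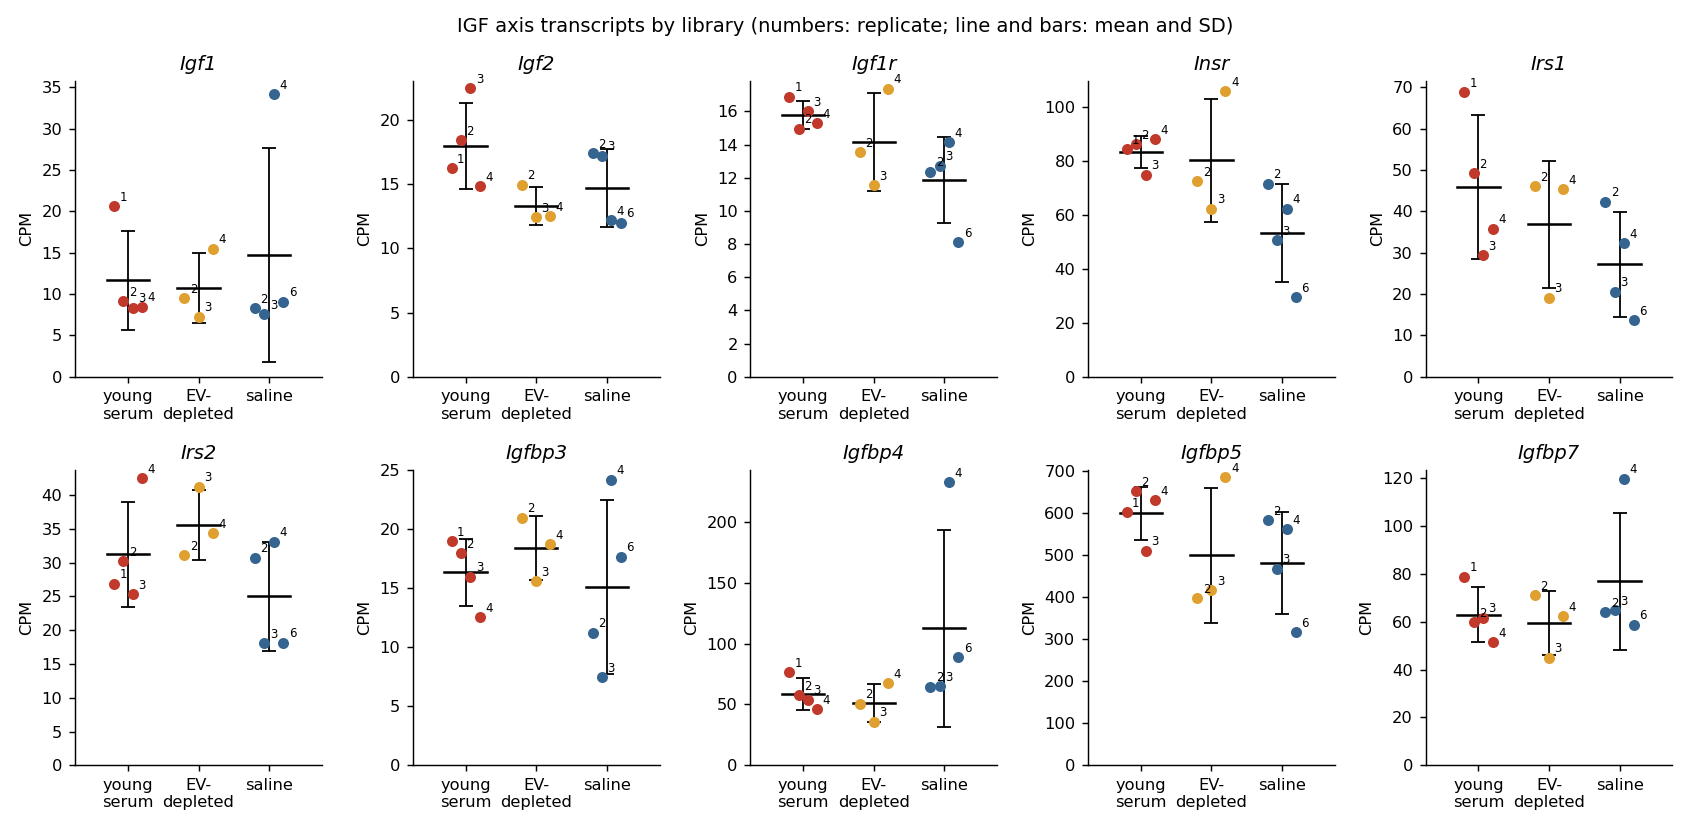
CPM of the 10 members in each library, with young serum left, EV-depleted serum in the middle and saline right, and with lines and bars for the mean and SD. Igf1 and Igfbp4 peak in saline replicate 4 at 34.1 and 233 CPM, and the 4 young serum libraries lie above the 4 saline libraries for Insr and Igf1r.

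Insr and Igf1r were the 2 members whose young serum and saline libraries did not overlap, where 12.2% of all genes were apart in either direction. Insr, the insulin receptor, lies on chromosome 8 at 3122061 to 3279617 (minus strand). It had 84.4, 86.2, 74.8 and 88.0 CPM in young serum, 72.4, 62.3 and 106 CPM in EV-depleted serum, and 71.4, 50.5, 62.2 and 29.4 CPM in saline. Every young serum library lay above every saline library, EV-depleted serum overlapped both groups, and saline replicate 6 was the lowest of all. The mean was 83.3 ± 5.91 CPM in young serum, 80.1 ± 22.7 in EV-depleted serum and 53.4 ± 18.1 in saline. In young serum against saline Insr was 1.63-fold (95% interval 1.12 to 2.35 before adjustment), a log2 fold change of 0.70 ± 0.24, with an unadjusted p of 0.0141 and an adjusted p of 0.180. The exact permutation p was 0.0286, the smallest that 4 against 4 libraries allow. In EV-depleted serum against saline the log2 fold change was 0.61 ± 0.26 (unadjusted p = 0.0385, adjusted p = 0.410), and young against EV-depleted serum gave 0.09 ± 0.26 (95% interval -0.49 to 0.66 before adjustment), which leaves room for a difference in either direction. Without saline replicate 6 the log2 fold changes against saline were 0.45 with young serum and 0.36 with EV-depleted serum.

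Igf1r, the receptor through which both IGFs act on growth, lies on chromosome 7 at 67952827 to 68233668 (plus strand). It had 16.9, 15.0, 16.0 and 15.3 CPM in young serum, 13.5, 11.5 and 17.4 CPM in EV-depleted serum, and 12.4, 12.7, 14.2 and 8.12 CPM in saline. Every young serum library again lay above every saline library. No member's groups were apart in EV-depleted serum against saline, where 7.42% of all genes were, or in young against EV-depleted serum, where 6.11% were. Igf1r averaged 15.8 ± 0.861 CPM in young serum, 14.1 ± 2.96 in EV-depleted serum and 11.8 ± 2.60 in saline. Its log2 fold change in young serum against saline was 0.41 ± 0.17 (1.33-fold, unadjusted p = 0.0346, adjusted p = 0.206), and 0.25 without saline replicate 6. With EV-depleted serum against saline it was 0.25 ± 0.19 (adjusted p = 0.533), and 0.0896 without saline replicate 6. The Insr over Igf1r ratio of CPM was 4.67 to 5.76 in young serum, 5.36 to 6.09 in EV-depleted serum and 3.62 to 5.78 in saline.

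Both receptors have long transcripts, and transcript length moved with the same groups. The exonic length was 16.8 kb for Igf1r and 13.7 kb for Insr. The 1234 tested genes with at least 10 kb of exon had a median log2 fold change of 0.29 in young serum against saline, with 83.1% above 0, and of 0.24 in EV-depleted serum against saline, with 81.8% above 0. The 2240 genes under 2 kb had medians of -0.31 and -0.23. The median deviation of the long genes was lowest in saline replicate 6, at -0.55 on the log2 scale, and highest in EV-depleted serum replicate 4, at 0.44. These are also the libraries with the lowest and the highest Insr and Igf1r. The length limits were chosen after the data were seen, and the part of length in the receptor values was not tested.

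The promoters of the substrates are printed because, of all member windows searched, theirs alone held the motifs below, which belong to factors known from insulin and clock biology. The search covered 12 windows of 250 bases upstream of RefSeq starts (GRCm38.p6), from 9 members. Insr had no window and was not searched. Only the windows of Irs1 and Irs2 held CACGTG, the E-box bound by clock and MYC-family factors, or TGTTTTG, the core of insulin-response elements bound by FoxO factors. Irs1 and Irs2 held both. Over all 32851 windows, 6.02% held CACGTG, 5.56% held TGTTTTG on either strand and 0.295% held both. The windows are chr1:82291440-82291689 for Irs1 and chr8:11008930-11009179 for Irs2, both on the minus strand and written 5′ to 3′ with the motifs in capitals.
Irs1: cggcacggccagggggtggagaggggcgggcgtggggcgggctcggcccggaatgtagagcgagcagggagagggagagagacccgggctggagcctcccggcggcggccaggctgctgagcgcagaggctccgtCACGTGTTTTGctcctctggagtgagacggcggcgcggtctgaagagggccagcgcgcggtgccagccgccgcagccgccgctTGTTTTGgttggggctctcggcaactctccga
Irs2: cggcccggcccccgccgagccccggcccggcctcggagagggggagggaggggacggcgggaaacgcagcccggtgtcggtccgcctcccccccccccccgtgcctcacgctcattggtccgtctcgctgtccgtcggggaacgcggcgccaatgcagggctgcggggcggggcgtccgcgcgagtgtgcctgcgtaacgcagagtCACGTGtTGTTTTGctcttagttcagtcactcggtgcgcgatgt
In Irs1 the CACGTG begins 115 bases upstream of the start and shares its last letters TG with a TGTTTTG that begins at 111, and a further TGTTTTG begins at 32. In Irs2 the CACGTG begins 44 bases upstream, and the TGTTTTG begins at 37. A match describes the letters and not binding.

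Irs1, the substrate best known for growth signalling, lies on chromosome 1 at 82233101 to 82291416 (minus strand). It had 68.7, 49.2, 29.4 and 35.8 CPM in young serum, 46.1, 19.1 and 45.3 CPM in EV-depleted serum, and 42.3, 20.5, 32.2 and 13.7 CPM in saline. The libraries varied within every group, from 13.7 CPM in saline replicate 6 to 68.7 CPM in young serum replicate 1, and all groups overlapped. The log2 fold change was 0.78 ± 0.38 in young serum against saline (unadjusted p = 0.0654, adjusted p = 0.251), 0.44 ± 0.41 in EV-depleted serum against saline (adjusted p = 0.607) and 0.33 ± 0.41 in young against EV-depleted serum. Without saline replicate 6 the log2 fold changes against saline were 0.50 with young serum and 0.17 with EV-depleted serum, and without EV-depleted serum replicate 3 the EV-depleted serum value was 0.85. On the opposite strand Irs1 overlaps Gm9747, listed at 19 to 51.4 CPM, and since the counting is not stated to use strand, reads of the pair cannot be told apart.

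Irs2, the other main substrate and in liver a target of FoxO1, lies on chromosome 8 at 10984681 to 11008458 (minus strand). It had 26.9, 30.2, 25.3 and 42.4 CPM in young serum, 31.1, 41.2 and 34.3 CPM in EV-depleted serum, and 30.7, 18.0, 33.1 and 18.1 CPM in saline. Saline replicates 3 and 6 were low, and the other saline libraries lay among the serum libraries. The log2 fold change was 0.33 ± 0.23 in young serum against saline (adjusted p = 0.375) and 0.53 ± 0.24 in EV-depleted serum against saline (unadjusted p = 0.0491, adjusted p = 0.412). Without saline replicate 6 the young serum value was 0.20. In young against EV-depleted serum the log2 fold change was -0.20 ± 0.24. Irs2 over Irs1 was 0.391 to 1.19 in young serum, 0.674 to 2.16 in EV-depleted serum and 0.726 to 1.32 in saline.

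Among the binding proteins, Igfbp4 had the lowest estimates of any member in both comparisons with saline. IGFBP4 is an inhibitory carrier that the protease PAPP-A cleaves, and its gene lies on chromosome 11 at 99041244 to 99054392 (plus strand). It had 76.7, 57.7, 54.0 and 46.3 CPM in young serum, 50.6, 35.8 and 67.2 CPM in EV-depleted serum, and 64.5, 64.8, 233 and 88.6 CPM in saline. Saline replicate 4 was far above the rest, and the other saline libraries overlapped both serum groups. The log2 fold change was -0.73 ± 0.36 in young serum against saline (unadjusted p = 0.0671, adjusted p = 0.253) and -0.95 ± 0.39 in EV-depleted serum against saline (unadjusted p = 0.0333, adjusted p = 0.404). Without saline replicate 4 these were -0.31 and -0.53.

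Igfbp7, a secreted IGFBP-related protein with low affinity for IGFs, is on chromosome 5 at 77349240 to 77408041 (minus strand). It showed the same high library, with 51.4 to 78.7 CPM in young serum, 44.9 to 71.0 CPM in EV-depleted serum, and 63.8, 64.8, 120 and 58.7 CPM in saline. The log2 fold changes were -0.24 ± 0.23 with young serum and -0.33 ± 0.25 with EV-depleted serum against saline (adjusted p = 0.542 and 0.532). Without saline replicate 4 they were -0.01 and -0.10. Its opposite-strand neighbour Polr2b was listed at 27.7 to 46.5 CPM, and reads of the pair cannot be told apart either.

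Igfbp3, the main carrier of IGFs in blood, is on chromosome 11 at 7206086 to 7213923 (minus strand). It was 12.5 to 18.95 CPM in young serum, 15.6 to 20.9 CPM in EV-depleted serum and 7.45 to 24.2 CPM in saline. The saline group held both the lowest and the highest library, replicates 3 and 4, so its groups overlapped fully. The log2 fold change was 0.21 ± 0.29 in young serum against saline and 0.38 ± 0.31 in EV-depleted serum against saline (adjusted p = 0.675 and 0.561). Without saline replicate 3 these were -0.0613 and 0.11, and without saline replicate 4 they were 0.46 and 0.63. Without saline replicate 6 the young serum value was 0.32. Igfbp5, which is on chromosome 1 at 72857932 to 72874884 (minus strand), had 603, 653, 511 and 632 CPM in young serum, 398, 416 and 685 CPM in EV-depleted serum, and 584, 468, 562 and 317 CPM in saline. Saline replicate 6 was the lowest and EV-depleted serum replicate 4 the highest, the same extremes as for Insr. Igfbp5 had a log2 fold change of 0.35 ± 0.21 in young serum against saline (adjusted p = 0.338), which was 0.16 without saline replicate 6. Igfbp5 was at 0.04 ± 0.23 on that scale in EV-depleted serum against saline (adjusted p = 0.936). That value was -0.21 without EV-depleted serum replicate 4, -0.14 without saline replicate 6 and 0.13 without saline replicate 4. Igfbp5 over Igfbp4 was 7.86 to 13.7 in young serum, 7.86 to 11.6 in EV-depleted serum and 2.42 to 9.04 in saline.

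Marker levels of other cell types differed between the same libraries. The summed level of 9 fibro-adipogenic progenitor and fibroblast markers (Pdgfra, Dcn, Lum, Col1a1, Col3a1, Gsn, Mfap5, Cd34, Ly6a) was 997 to 2033 CPM in young serum, 836 to 1522 CPM in EV-depleted serum and 1123 to 4256 CPM in saline. Gsn alone, which encodes the actin-severing protein gelsolin, made up 3562 of the 4256 CPM in saline replicate 4. The other 8 markers, a split made after the values were seen, summed to 337 to 708 CPM in young serum, 272 to 617 CPM in EV-depleted serum and 437 to 694 CPM in saline. On these 8, saline replicate 4 was thus no higher than young serum replicate 1. The highest library of each group, with or without Gsn, was young serum replicate 1, EV-depleted serum replicate 4 and saline replicate 4, and the same 3 libraries were the highest of their groups for Igf1. Saline replicate 4 was also the highest of all libraries for Igfbp3, Igfbp4 and Igfbp7.

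Adipocyte markers (8 genes) summed to 1358 to 2389 CPM in young serum, 1691 to 2269.9 CPM in EV-depleted serum and 1652 to 8101 CPM in saline, where the 8101 CPM fell in saline replicate 4. Car3 alone averaged 1573 ± 398 CPM in young serum, 1686 ± 298 in EV-depleted serum and 1715 ± 534 in saline. Outside saline replicate 4 the sums were thus mostly Car3. Adipoq, the adipocyte hormone adiponectin, was at 319.8 CPM in that library and at 2.89 to 28.8 CPM in the other 10. Macrophage markers summed to 52.7 to 155 CPM in young serum, 71.5 to 123 CPM in EV-depleted serum and 125 to 330.4 CPM in saline. The 330.4 CPM also fell in saline replicate 4. Endothelial markers (9 genes) summed to 251 to 354 CPM in young serum, 260 to 346 CPM in EV-depleted serum and 246 to 439 CPM in saline. Their highest library was again saline replicate 4. None of these marker lists had a gene at 0 in any library. Of the 9 macrophage genes, 0 passed adjustment, and all 9 were below 0 in both comparisons with saline. Of all genes, 47.5% were above 0 in young serum against saline and 49.6% in EV-depleted serum against saline. The part of adipocytes, macrophages, fibroblasts, endothelial cells and other cell types in the values of Igf1 and the binding proteins was not tested.

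**Figure D4:**
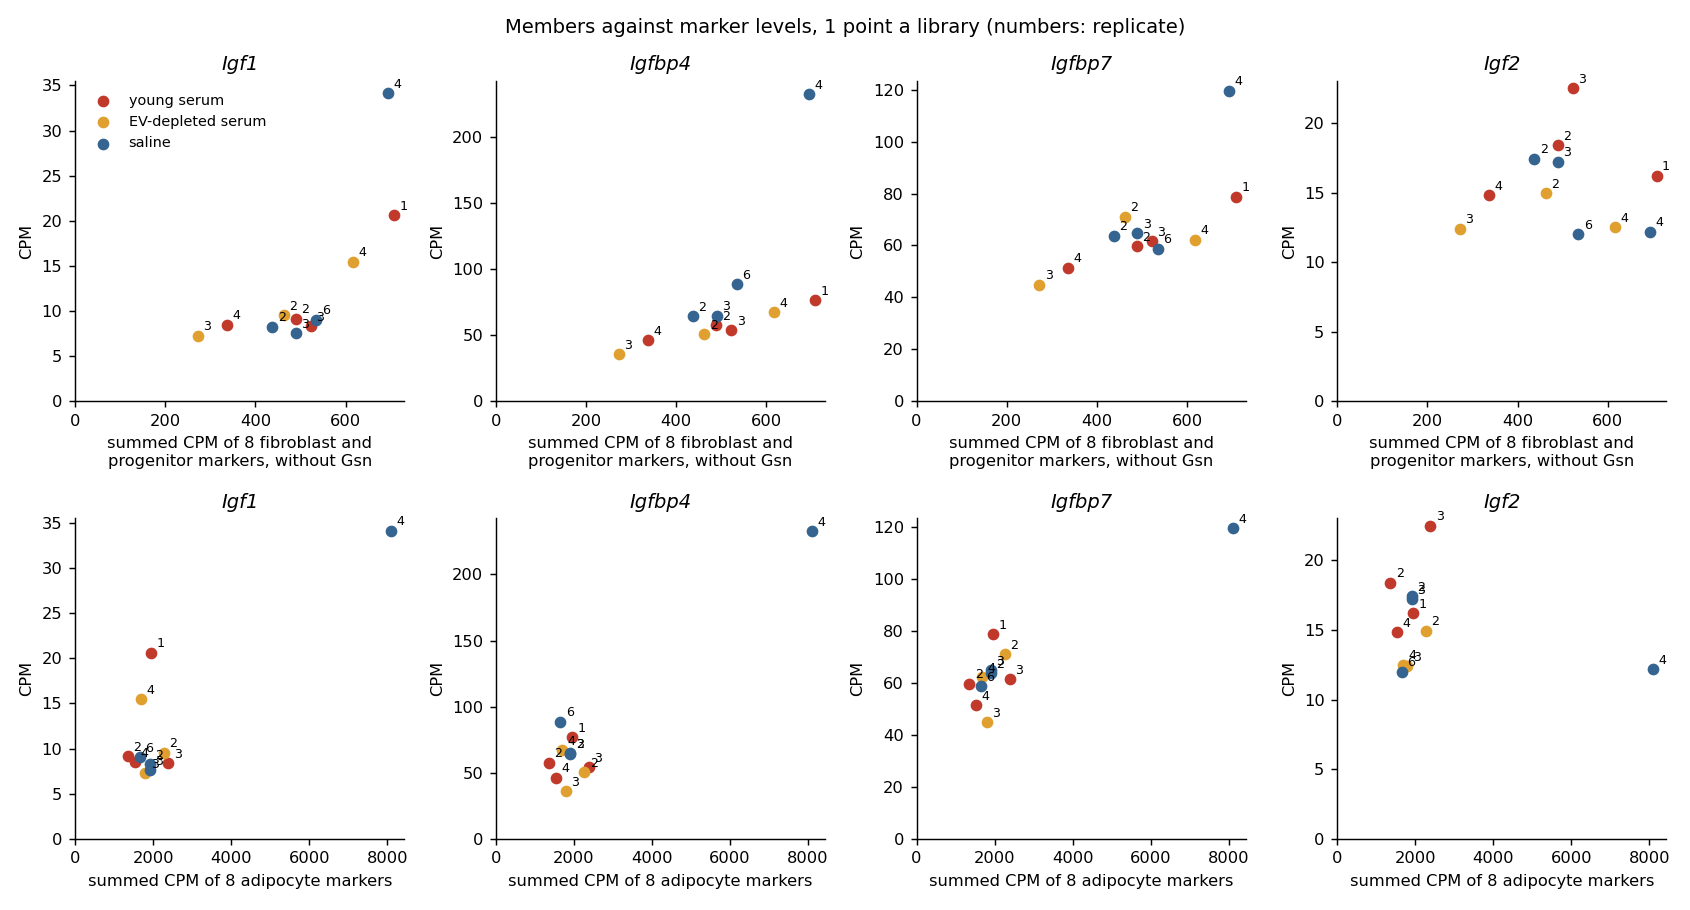
CPM of Igf1, Igfbp4, Igfbp7 and Igf2 against the summed CPM of 8 fibroblast and progenitor markers without Gsn (top) and of 8 adipocyte markers (bottom), 1 point a library, coloured by group and numbered by replicate. Saline replicate 4 is the highest point for Igf1, Igfbp4 and Igfbp7 and lies apart on the adipocyte axis at 8101 CPM, but on the fibroblast axis, at 694 CPM, it lies beside young serum replicate 1 at 708. For the other libraries the adipocyte axis is mostly Car3.

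Members differed in how their libraries deviated from the group means, given here as a description over 11 libraries that each share 1 depth and composition over all genes. Igf1 and Igfbp4 moved together (Pearson r = 0.96), as did Igfbp4 and Igfbp7 (r = 0.89). Saline replicate 4 was far above its group for all of them, at 34.1, 233 and 120 CPM for Igf1, Igfbp4 and Igfbp7. A single such library can carry an r over 11 libraries, also with the genes listed below, and r without it was not computed. Insr moved with Igfbp5 (r = 0.95) and with Igf1r (r = 0.88). Igf2 had its lowest r with Igf1, at -0.48. The genes most like Igf1, Insr, Igf1r, Igfbp4 and Igf2, out of 13187, are given here, and those of the other members are not listed. For Igf1 they were Idi1, an isoprenoid enzyme, Fam160a2 and Scn7a, a sodium-channel family member, each with r = 0.98. For Insr they were Appl1, an adaptor of AKT and adiponectin receptor signalling, Ralgapb and Nacc2, each with r = 0.99. For Igf1r they were Cstf3, Klc1 and Stx16 (r = 0.98 to 0.99), and for Igfbp4 Plek, Psat1 and Rap2a (r = 0.99). The genes nearest to Igf2, namely Acad12, Gm6665 and Il12a, reached r = 0.88 to 0.90.

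Of 74 other genes of the pathway that were tested, 0 passed adjustment in any comparison. At an unadjusted p under 0.05, 22 of 74 (29.7%) passed in young serum against saline, 19 higher and 3 lower, where 21.9% of all genes did. For EV-depleted serum against saline 13 of 74 (17.6%) did, where 12.1% of all genes did, and in young against EV-depleted serum 2 of 74 (2.70%), where 2.23% did. The lists were chosen with results of these data known, and these shares carry no test.

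The PI3K and AKT genes all had estimates above 0 in young serum against saline, 15 of 15 with a median log2 fold change of 0.22, where 47.5% of all genes were above 0. At an unadjusted p under 0.05, 5 of 15 were higher, where 10.5% of all genes were. Gsk3b, the kinase that AKT inhibits to release glycogen synthesis, averaged 79.4 ± 7.84 CPM in young serum, 69.9 ± 9.71 in EV-depleted serum and 55.3 ± 10.1 in saline, with a log2 fold change of 0.53 ± 0.15 in young serum against saline (adjusted p = 0.180). Phlpp1, a phosphatase that turns AKT off, had a log2 fold change of 0.66 ± 0.21 in the same comparison (adjusted p = 0.180). In EV-depleted serum against saline, 12 of 15 were above 0, where 49.6% of all genes were. The 2 with the smallest p there were Inppl1, a lipid phosphatase, and Pik3r3, a regulatory subunit, with log2 fold changes of 0.39 ± 0.13 and 0.47 ± 0.18 (adjusted p = 0.391 and 0.404). Both activators and inhibitors of the route were among the genes with positive estimates.

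Of the mTORC1 genes, 11 of 15 were above 0 in young serum against saline, with a median of 0.38, and 4 were higher at an unadjusted p under 0.05, against the same shares of all genes. Tsc1 and Tsc2, the paired brake on mTORC1, had log2 fold changes of 0.83 ± 0.21 and 0.40 ± 0.11 (adjusted p = 0.180 for both). In EV-depleted serum against saline, Tsc1 and Mtor, the kinase itself, had log2 fold changes of 0.69 ± 0.22 and 0.45 ± 0.17 (adjusted p = 0.391 and 0.404). Ddit4, a stress-induced inhibitor of mTORC1, averaged 12.9 ± 6.63 CPM in young serum, against 6.30 ± 0.818 CPM in EV-depleted serum, a log2 fold change of 0.83 ± 0.35 (unadjusted p = 0.0346, adjusted p = 0.99998).

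Among glucose-uptake genes, 6 of 7 were above 0 in young serum against saline, where 47.5% of all genes were. Tbc1d1, an AKT and AMPK substrate that restrains GLUT4 traffic in fast muscle, averaged 85.7 ± 15.9 CPM in young serum, 70.9 ± 20.5 in EV-depleted serum and 42.1 ± 5.74 in saline. Its log2 fold change in young serum against saline was 0.997 ± 0.191, with an unadjusted p of 0.000235 and an adjusted p of 0.180. The groups did not overlap, where 12.2% of all genes were apart in either direction. Rab10, which carries GLUT4 vesicles in fat cells, had a log2 fold change of 0.51 ± 0.15 (adjusted p = 0.180), and the transporter gene Slc2a4 itself one of 0.07 ± 0.08.

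The growth hormone, FoxO and clearance lists were mixed in direction. Jak2 and Stat5b, which relay growth hormone to the Igf1 gene, had log2 fold changes of 0.68 ± 0.23 and 0.39 ± 0.15 in young serum against saline (adjusted p = 0.180 and 0.188). In that comparison 4 of 7 growth hormone genes were above 0, where 47.5% of all genes were. Of 9 FoxO genes, 5 were above 0 there, against the same 47.5% of all genes. Among them were Foxo4 and Fbxo32, the atrogin-1 ubiquitin ligase, with log2 fold changes of 0.31 ± 0.09 and 0.61 ± 0.24 (adjusted p = 0.180 and 0.192). Igf2r, which takes IGF2 to lysosomes, had log2 fold changes of 0.49 ± 0.17 in young serum against saline and 0.42 ± 0.18 in EV-depleted serum against saline (adjusted p = 0.180 and 0.408). Stc2, an inhibitor of the protease PAPP-A, had log2 fold changes of -0.38 ± 0.24 and -0.60 ± 0.26 in these comparisons (adjusted p = 0.352 and 0.412). Among the adaptors, Gab1 and the feedback inhibitor Socs1 had log2 fold changes of 0.50 ± 0.13 and -1.11 ± 0.37 in young serum against saline (adjusted p = 0.180 for both). In both genes the groups did not overlap, where 12.2% of all genes were apart in either direction. Socs1 was near the floor, at 0.439 to 1.15 CPM in young serum and 1.71 to 7.27 CPM in saline. It met the filter through its saline libraries, so its separation carries no weight.

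**Figure D5:**
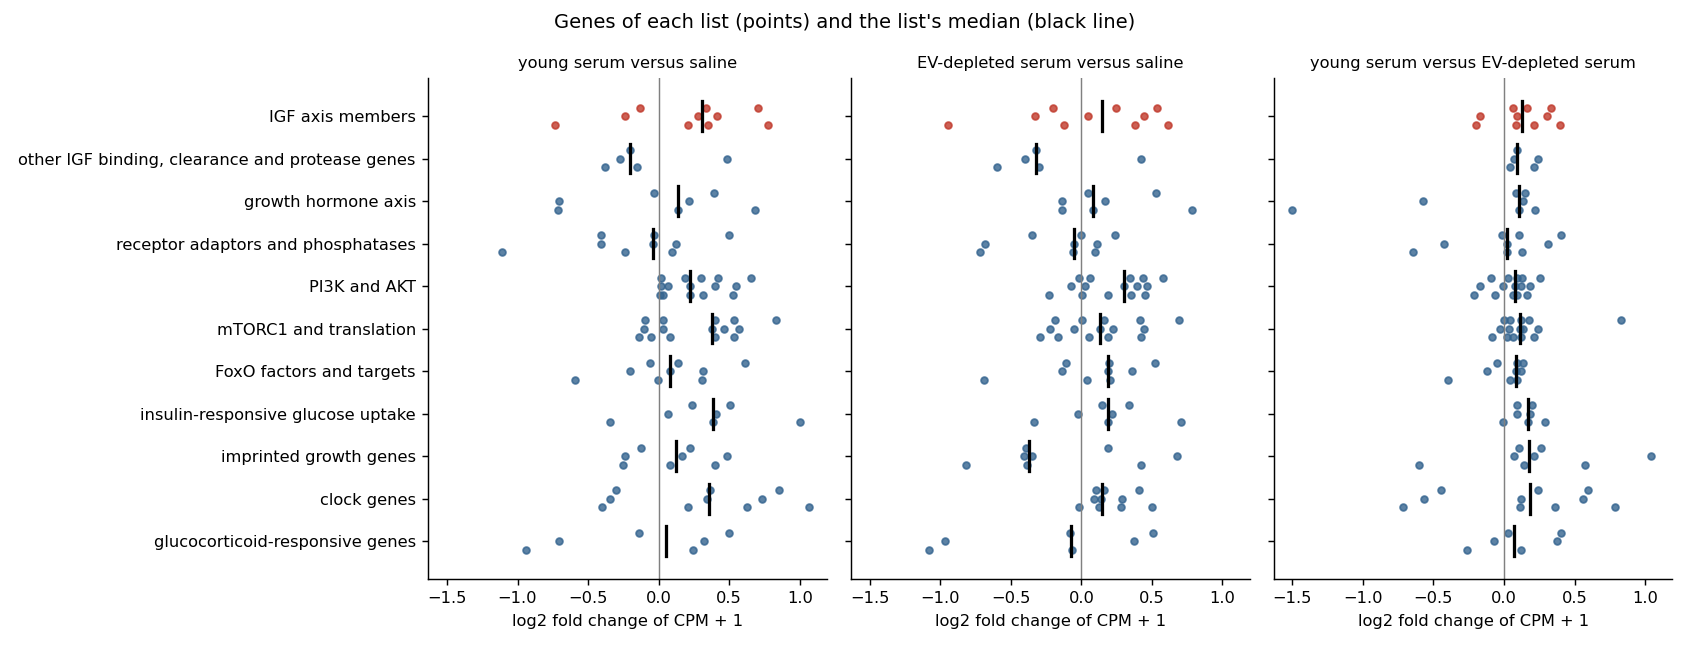
Log2 fold changes of CPM + 1 of the tested genes in each list (points) and the median of each list (black line) in the 3 comparisons. The 15 PI3K and AKT genes all lie right of 0 in young serum against saline, with a median of 0.22, and no gene drawn passed adjustment over all genes.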

How the data were processed

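The deposited CPM values had been scaled by the authors to 1000000 per library, with an offset of 0.0001, a reading of the values themselves. The deposited TPM values were not used for results: their totals of 288820 per library match CPM divided by genomic span, introns included. FastQC, STAR, DESeq2 and the build mm10 appear in the submitters' processing notes, without versions or roles, and no source used here gives the strand handling. Of the low CPM values, 75.6% to 79.0% were whole multiples of 1 read within 0.1 reads, too few to recover counts, so no count model was fitted.

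Genes reaching 1 CPM in 3 or more libraries were analysed as log2(CPM + 1), a pseudocount of 1 that understates the changes of low genes. limma 3.58.1 in R 4.3.3 fitted all 11 libraries with eBayes and a variance trend, two-sided, with Benjamini-Hochberg adjustment at 0.05 over 13187 genes. The exact permutation test compared group means of the same values. The script was tested on simulated data. Exonic lengths came from GENCODE M21 and figures from matplotlib 3.10.9 in Python 3.11.15.

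All members were named. Of 9 pathway lists and 2 lists of clock and glucocorticoid-responsive genes, up to 2 genes with the smallest unadjusted p per comparison could be named, and for each member the 3 genes with the highest r. Genes such as Slc2a4, H19 and those named in marker lists were given in addition. The members, lists and 12 marker lists were chosen with earlier results of these data known. Alternatives were no filter, pseudocount 0.1, median-of-ratios scaling, array weights, no trend, only the groups compared, a replicate block and libraries left out. Precision is limited by 3 to 4 libraries a group.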

Additional observations from a re-analysis of the deposited data

Results flagged for a closer look

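Within the groups of 4 libraries, 20 sets of values were screened for a library far from the others, and 4 stood out, where chance gives about 1 in 20 if sets are independent. These sets are not: Igf1, Igfbp4 and Igfbp7 stood out in the same library and moved together (r = 0.88 to 0.96). The count therefore cannot be set against that rate. Igf1 in young serum replicate 1 was at 20.6 CPM, with the others at 8.34 to 9.14. Igf1 in saline replicate 4 was at 34.1 CPM, with the others at 7.57 to 9.05. Igfbp4 in saline replicate 4 was at 233 CPM, with the others at 64.5 to 88.6. Igfbp7 in saline replicate 4 was at 120 CPM, with the others at 58.7 to 64.8. Without Gsn, 8 fibroblast and progenitor markers summed to 708 CPM in young serum replicate 1 and 694 CPM in saline replicate 4, the highest of their groups. Adipocyte markers summed to 1951 CPM in young serum replicate 1 and 8101 CPM in saline replicate 4, and Adipoq alone was at 20.5 and 319.8 CPM. The part of those cells was not tested.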

How the results depend on the processing

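With 4, 3 and 4 libraries, no member passed in the limma fit reported, and 0 members passed when any library was left out. Array weights gave saline replicates 4 and 6 weights of 0.208 and 0.295 against 3.32 for saline replicate 3. EV-depleted serum replicates 3 and 4 had 0.634 and 0.423 against 4.19 for EV-depleted serum replicate 2. The estimate of the weights stopped before convergence. With these weights, 3441, 1794 and 24 genes were called in young serum against saline, EV-depleted serum against saline and young against EV-depleted serum. The members called were 5 (Insr, Igf1r, Irs1, Irs2, Igfbp3), 3 (Insr, Irs2, Igfbp3) and 0. Leaving out 1 library gave 0 to 251 genes in young serum against saline, the most without saline replicate 2, and 0 to 5 in EV-depleted serum against saline. Without saline replicates 4 and 6 together, 0, 2 and 0 genes were called.

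Same-numbered libraries of different groups correlated between -0.28 and 0.30 in their deviations from the group means, and differently numbered ones between -0.50 and 0.54. The labels do not state that the numbers pair samples, and 9 same-numbered pairs are too few to decide it. The replicate block called 0, 6 and 0 genes and 0 members.

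Log2 fold changes near 0 changed sign, and the cause was not tested. In young serum against saline, Igf1 was at 0.27 with array weights and 0.41 without saline replicates 4 and 6. In EV-depleted serum against saline, Igf1 was at 0.18 and 0.34 in those settings, Igfbp5 at -0.18 and -0.11 and, with the replicate block, -0.14, and Igfbp7 at 0.0070 with array weights. In young against EV-depleted serum, Igfbp7 was at -0.11 with array weights and -0.0226 with the replicate block, and Igf1 at -0.22 with the block. Leaving out libraries in turn gave, in young serum against saline, -0.42 to 0.35 for Igf1 and -0.0613 to 0.46 for Igfbp3. In EV-depleted serum against saline it gave -0.47 to 0.28 for Igf1 and -0.21 to 0.19 for Igfbp5. In young against EV-depleted serum it gave -0.22 to 0.34 for Igf1, -0.0727 to 0.30 for Insr, -0.0709 to 0.54 for Irs1, -0.0164 to 0.43 for Igfbp4 and -0.10 to 0.23 for Igfbp7, the lowest without EV-depleted serum replicate 3 except for Igf1.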

Other observations

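Clock genes lie outside the comparisons of the axis, and none passed adjustment. Per2, a repressor of the circadian clock, averaged 17.6 ± 3.54 CPM in young serum, 9.91 ± 2.86 in EV-depleted serum and 8.08 ± 2.86 in saline. Its groups did not overlap in young serum against saline, where 12.2% of all genes were apart in either direction. Its log2 fold change there was 1.07 ± 0.23 (unadjusted p = 0.000593, adjusted p = 0.180). Hlf, a clock-output transcription factor, had a log2 fold change of 0.73 ± 0.17 (adjusted p = 0.180). Of 10 clock genes, 7 were above 0, where 47.5% of all genes were, 3 were below 0 and 0 passed adjustment. Among those below 0, Nr1d1 and Npas2 had log2 fold changes of -0.34 ± 0.14 and -0.40 ± 0.18 (adjusted p = 0.208 and 0.215). Npas2 averaged under 1 CPM in both groups. Of 6 glucocorticoid-responsive genes, 3 were above 0 and 3 below 0 in young serum against saline, where 47.5% of all genes were above 0. Tsc22d3, encoding the leucine-zipper protein GILZ, had a log2 fold change of 0.32 ± 0.10 (adjusted p = 0.180). Mt1 and Mt2 went the other way, at -0.94 ± 0.42 and -0.71 ± 0.46 (adjusted p = 0.221 and 0.361). The labels give no time of day for the dissections.

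Myh3, the embryonic myosin of regenerating fibres, averaged 17.0 ± 25.5 CPM in young serum, 8.37 ± 6.33 in EV-depleted serum and 3.45 ± 4.27 in saline, with a highest library of 55.3 CPM in young serum. Its log2 fold change in young serum against saline was 1.47 and did not pass (unadjusted p = 0.0899).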
